A study of Mus musculus with 6 samples.

Results

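The heat shock proteins and the DnaJ proteins that work with them were compared between brains of Dap12 knockout mice and of their heterozygous counterparts. The members were chosen by name, as all genes whose symbol in the platform annotation begins with Hspa, Hspb, Hspd, Hspe, Hsph, Hsp90, Dnaja, Dnajb or Dnajc, or is Hsf1, Hsf2 or Cryab, without Hspbp1 and Hspbap1, which are partners of chaperones. This gave 72 of 18194 genes, read by 174 of the 45101 probe sets on the array, each of which is a group of short probes for 1 transcript or part of it. Probe sets annotated with several genes were left out. Hsp90ab1 and Hsf1 were not analysed here. The samples were 3 Dap12-ko mice (67, 68 and Ko1) and 3 Dap12-het mice (75, 76 and 81), all 1 month old, with 1 one-colour Affymetrix array each. Dap12 is an adaptor protein of microglia encoded by Tyrobp, and the heterozygous mice also carry 1 disrupted copy. The tissue is given as brain, and by the design text as midbrain with diencephalon and basal ganglia. The source field calls all 6 samples Dap12-deficient, so the groups rest on the titles and descriptions. Strain, sex, litter and the construction of the allele are not stated by the labels. Nothing there says how the 3 mice of a group relate to each other, so the p-values cover only the spread among them, which may be technical.

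Heat shock proteins are chaperones, which bind unfolded or partly folded proteins and help them fold, move through membranes or be degraded. Hsp70 proteins do this in cycles of ATP hydrolysis that DnaJ proteins, also called Hsp40, start and that Hsp110 proteins reset by nucleotide exchange. Hsp90 acts late on clients such as kinases and steroid receptors, small heat shock proteins hold unfolding proteins without ATP, and the chaperonin formed by Hspd1 and Hspe1 encloses proteins inside mitochondria. Heat shock factors bind repeated nGAAn blocks in promoters and switch on the inducible members. In brain, Hspa8 with the J protein auxilin strips clathrin from synaptic vesicles, and Cryab is abundant in oligodendrocytes.

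Some features of the arrays as a whole bear on every value below. Tyrobp had signals of 2.28, 23.7 and 12.9 in knockouts 67, 68 and Ko1 and of 70.7, 68.2 and 77.6 in heterozygotes 75, 76 and 81, a change of -1.68 ± 0.33 in log2 units (adjusted p = 0.0439). All 18 probe sets of bacterial hybridization spikes, which are not mouse transcripts, had all knockout arrays above all heterozygous arrays, with summed signals of 154197, 79435 and 69900.5 on the knockout arrays and 22298, 22837 and 23993 on the heterozygous arrays. The ratio of 3' to 5' signal of pyruvate carboxylase, a check of RNA and labelling, was 3.89, 2.7 and 3.44 on knockout and 11.3, 11.7 and 12.6 on heterozygous arrays. Its 5' signals were 65.8, 99.9 and 42.1 on knockout and 14.8, 15.5 and 10.2 on heterozygous arrays. The latter are near the bottom of the scale, where a ratio is uncertain. The ratio of actin overlapped, at 2.33, 1.76 and 2.21 on knockout and 1.77, 1.59 and 2.12 on heterozygous arrays. Those of Gapdh and transferrin receptor overlapped too. Genotype and these differences between the groups' arrays cannot be told apart. Knockout 67 and 68 also stood apart from the rest. Summed signals of 7 oligodendrocyte genes were 65480.4, 50789 and 27933 on knockout and 20738, 20223 and 20166 on heterozygous arrays, and those of 5 choroid plexus genes 16307, 17944 and 628 on knockout and 759, 1633 and 3735 on heterozygous arrays. Neuronal markers were present on all arrays, with sums of 22754, 25003 and 17856 on knockout and 15838, 15814 and 15189 on heterozygous arrays over 8 genes. Sums of 8 microglia genes were 2438, 2536 and 2768 on knockout and 1639, 1790 and 2039 on heterozygous arrays. For 7 astrocyte genes they were 18952, 19144 and 17081 on knockout and 14340, 14536 and 11939 on heterozygous arrays. These sums of neurons, microglia and astrocytes were higher on every knockout array, Ko1 included, while those of endothelium and pericytes overlapped. Median log2 changes of the tested probe sets of neurons, microglia and astrocytes were 0.22, 0.47 and 0.42. They were 0.05, 0.44 and 0.49 with quantile normalization, but -0.18, 0.07 and 0.02 with each array centred on its median. The higher sums thus depend on the scaling of the arrays. Over the member probe sets tested, knockout 67 and 68 correlated at 0.964 with each other and at 0.869 to 0.904 with the heterozygous arrays, which correlated at 0.976 to 0.986 among themselves, and knockout Ko1 correlated with them at 0.938 to 0.959. In bulk tissue, fewer cells of a type and less RNA per cell cannot be told apart.

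Few heat shock or DnaJ probe sets passed the test. Of the 174 probe sets, 129 for 59 genes were bright enough to be tested. Of these 3 rose, in Hspa8, Hspa9 and Hspa12a, 0 fell (limma; 15 were lower at an unadjusted p under 0.05) and 126 did not pass. The 3 are 2.33% of the members tested, against 1.98% of all 22518 probe sets tested, of which 280 (1.24%) rose and 165 (0.733%) fell. The members were thus called about as often as other probe sets. Changes are differences in log2(signal + 16), knockout minus heterozygous, with the standard error of the limma fit. The added 16 makes a given ratio of dim signals appear smaller. The median signal of an array was 40.4 (knockout 67), 35.8 (68) or 24.7 (Ko1). It was lower for heterozygotes 75 (20.3), 76 (22.0) and 81 (21.4). Of 22519 probe sets too dim to be tested, 18.8% had every knockout array above every heterozygous array, and 2.32% below. How much of the change of a dim probe set comes from such array-wide differences was not tested. Adjusted p comes from limma with Benjamini-Hochberg adjustment over all probe sets tested, at a threshold of 0.05. At an unadjusted p under 0.05, 15 members were higher (against 11.7% of all tested) and 15 lower (against 9.22%). The median change was -0.000747 over the members and 0.0017 over all probe sets tested. With each array centred on its median these medians became -0.40 and -0.40, so that centring moves every change below by this amount. All 3 knockout arrays lay above all 3 heterozygous arrays for 21 members (16.3%, against 14.9% of all tested) and below them for 13 (10.1%, against 12.5%). With 3 arrays in each group an exact permutation test cannot give a two-sided p below 0.1.

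**Figure D1:**
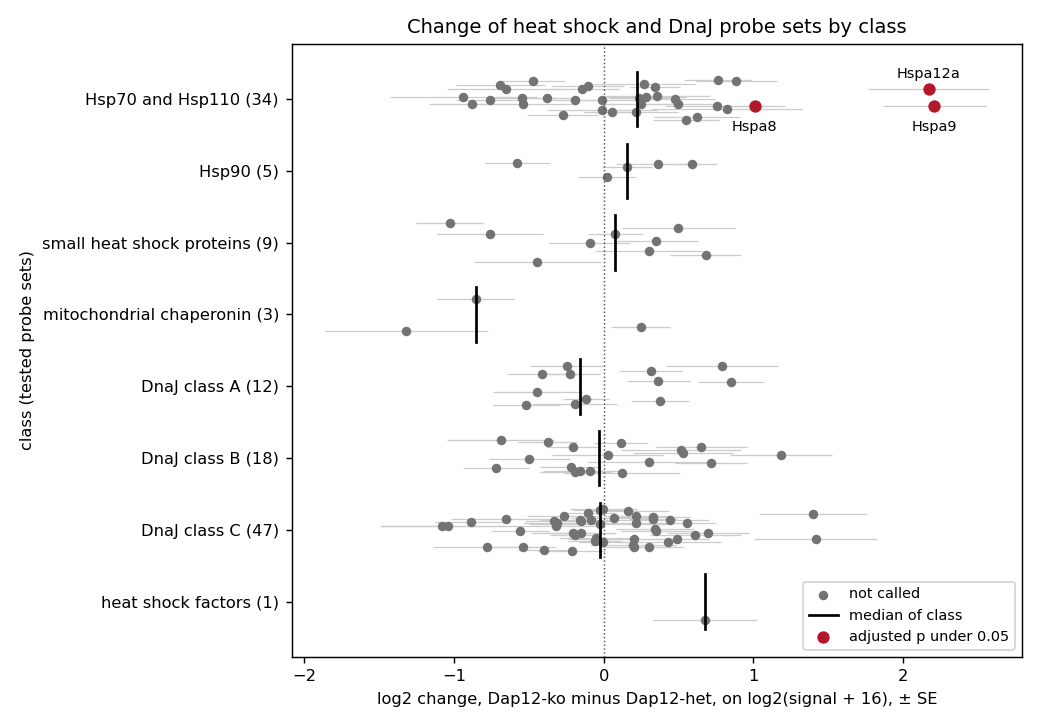
Change of each of the 129 tested heat shock and DnaJ probe sets by class. Points are log2 changes (knockout minus heterozygous, n = 3 arrays each) with their standard errors, short vertical lines are class medians, and red points passed an adjusted p of 0.05. The 3 red points are Hspa8 at 1.01, Hspa12a at 2.17 and Hspa9 at 2.21, all in the Hsp70 class, and every other class has 0 called. Those of Hspa12a and Hspa9 passed the filter on level through the knockout arrays alone.

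The calls fell in the Hsp70 and Hsp110 class, where 3 of 34 tested probe sets rose, 0 fell (limma; 3 were lower at an unadjusted p under 0.05) and the median change was 0.23. The 3 are 8.82% of the class, against 1.24% of all tested that rose. Those of Hspa9 and Hspa12a passed the filter on level through the knockout arrays alone, so the count is no result about the class. Hspa8 encodes Hsc70, the constitutive Hsp70 of the cytosol. Its called probe set, 1455789_x_at, had signals of 13131, 12987 and 8245 in knockouts 67, 68 and Ko1, against 5618, 5035 and 6053 in heterozygotes 75, 76 and 81. All knockout arrays were above all heterozygous arrays, with Ko1 the lowest of them. It rose by 1.01 ± 0.20 on the log2 scale (adjusted p = 0.0464). Changes on the 3 further Hspa8 probe sets were 0.76 ± 0.35, 0.55 ± 0.22 and 0.50 ± 0.26, none of them called, and in each the groups overlapped. One of them, 1420623_x_at, read 7676, 8577 and 4703 on the knockout arrays and 4341, 4779.9 and 4729 on the heterozygous arrays, so that Ko1 lay among the heterozygous values. The suffix x marks probe sets whose probes can also match other sequences, and Hspa8 has many processed pseudogenes. Its heterozygous signals lay near the top of those arrays. The brightest of all probe sets read 46271, 28024 and 16673 on the knockout arrays and 7417, 7573 and 7789.8 on the heterozygous arrays, and whether the highest signals were compressed was not tested. Quantile normalization turned the change of 1455789_x_at to -0.24 (adjusted p = 0.427) and that of 1420623_x_at to -0.21. The call was also lost with arrays centred on their medians (0.61, adjusted p = 0.0709) and without knockout 67, knockout 68, heterozygous 75, heterozygous 76 or heterozygous 81 (adjusted p from 0.131 to 0.212).

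Hspa9 encodes mortalin, the Hsp70 of the mitochondrial matrix, which pulls imported proteins inwards. Its probe set 1431274_a_at read 106, 147 and 59.6 on the knockout arrays and 3.36, 13.3 and 10.8 on the heterozygous arrays. The groups were far apart, and the heterozygous signals were near the bottom of the scale. It rose by 2.21 ± 0.34 on the log2 scale (adjusted p = 0.0284). The brightest Hspa9 probe set, 1418504_at, gave 641, 586 and 585 on knockout and 509, 458 and 452 on heterozygous arrays, a change of 0.34 ± 0.17 (adjusted p = 0.278). Another probe set went the other way, with 219.9, 172 and 319 on knockout and 349, 317 and 360.4 on heterozygous arrays (-0.54 ± 0.24, adjusted p = 0.239), and there Ko1 lay just above the lowest heterozygous value. The remaining one, 1447728_x_at, was higher on all knockout arrays but did not pass (0.76 ± 0.22, adjusted p = 0.109). The brightest changed by -0.06 when each array was centred on its median. The call of 1431274_a_at was lost without knockout 67, knockout 68 or any 1 of the heterozygous arrays (adjusted p from 0.0888 to 0.173), and with no filter on level (adjusted p = 0.0522).

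Hspa12a is a distant relative of Hsp70 with high expression in brain. All of its 3 tested probe sets had changes above 0, also with quantile normalization and with arrays centred on their medians. The called one, 1447222_at, read 95.5, 129 and 34.6 on the knockout arrays and 7.25, 2.73 and 4.52 on the heterozygous arrays, and rose by 2.17 ± 0.40 on the log2 scale (adjusted p = 0.0391). The brightest, 1436961_at, read 592, 501 and 349 on knockout and 224, 339.5 and 197 on heterozygous arrays (0.89 ± 0.27, adjusted p = 0.118). On this one the groups did not overlap, but Ko1 was just above heterozygous 76. The third, 1434051_s_at, changed by 0.62 ± 0.29. The call of 1447222_at did not hold under quantile normalization (adjusted p = 0.0598), with 64 added in place of 16 (adjusted p = 0.0543), with no filter (adjusted p = 0.0804) and without any 1 heterozygous array (adjusted p from 0.131 to 0.188), and without knockout 67 or knockout 68 its mean was under the filter on level. Both dim probe sets, this one and 1431274_a_at of Hspa9, are among 5 tested members that passed the filter on level through the knockout arrays alone, and neither was tested when the filter used the heterozygous arrays.

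**Figure D2:**
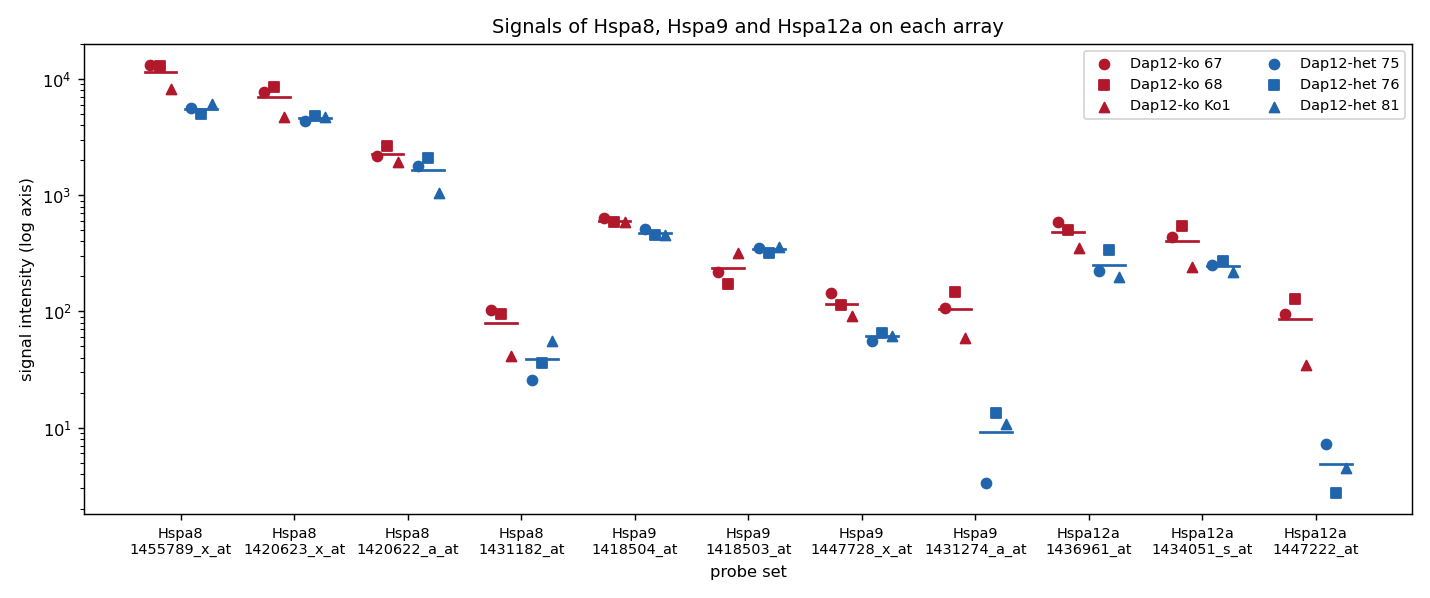
Signal intensity on a log axis of every tested probe set of Hspa8, Hspa9 and Hspa12a, with knockout arrays in red, heterozygous arrays in blue and lines at the group means (n = 3 each). The called probe sets of Hspa9 and Hspa12a stand at 13.3 or lower on all heterozygous arrays, while the brighter probe sets of both genes differ far less between the groups.

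Hspa1a and Hspa1b encode the classical inducible Hsp70, which is scarce in unstressed tissue and made in quantity after heat or other stress. The copies lie next to each other on chromosome 17, and their promoter windows (250 bases before to 50 after the start, RefSeq, GRCm38.p6) are nearly the same, with 296 of 300 bases identical. The windows show how alike the copies are around their starts only. Whether the probe sets can tell the copies apart was not tested. Capitals mark the 4 bases that differ, at chr17:34972107-34972406 (minus strand) for Hspa1a and chr17:34959189-34959488 (minus strand) for Hspa1b.
Hspa1a: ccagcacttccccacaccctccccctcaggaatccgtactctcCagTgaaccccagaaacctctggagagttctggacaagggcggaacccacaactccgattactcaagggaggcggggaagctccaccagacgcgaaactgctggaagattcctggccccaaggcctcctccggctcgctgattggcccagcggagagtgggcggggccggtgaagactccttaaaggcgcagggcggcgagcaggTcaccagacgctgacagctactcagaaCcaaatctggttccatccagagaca
Hspa1b: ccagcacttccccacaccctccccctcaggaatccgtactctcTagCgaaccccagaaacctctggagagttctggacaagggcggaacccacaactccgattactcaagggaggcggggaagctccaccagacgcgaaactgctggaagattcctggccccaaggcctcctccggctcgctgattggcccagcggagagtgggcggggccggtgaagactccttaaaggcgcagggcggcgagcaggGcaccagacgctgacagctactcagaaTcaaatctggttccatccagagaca

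No probe set of the inducible Hsp70 passed the test, and all 4 changes were below 0. The Hspa1b probe set 1427127_x_at had signals of 72.4, 111 and 51.3 in knockouts 67, 68 and Ko1 and of 197, 148 and 118 in heterozygotes 75, 76 and 81. All knockout values were below all heterozygous ones, but the change of -0.88 ± 0.29 did not pass (adjusted p = 0.139). The other Hspa1b probe sets read 70.3, 128 and 54 on knockout against 172, 129 and 118 on heterozygous arrays (-0.69 ± 0.30, adjusted p = 0.231) and 55.6, 105 and 23.2 on knockout against 124, 79 and 82.3 on heterozygous arrays (-0.65 ± 0.39, adjusted p = 0.382), and in both of them knockout 68 lay within the heterozygous range. Hspa1a read 33.7, 116 and 40.3 on knockout and 55.5, 59.8 and 53.3 on heterozygous arrays, with 1 knockout array above and the other 2 below all heterozygous values (-0.01 ± 0.37, adjusted p = 0.992). The negative sign of all 3 Hspa1b probe sets was the same with quantile normalization and with centred arrays.

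Among the other cytosolic members, Hspa2, known from spermatocytes and also made in brain, read 86.4, 60.9 and 106 on knockout and 93.6, 119 and 98.8 on heterozygous arrays (-0.27 ± 0.24, adjusted p = 0.546). The Hsp110 proteins Hspa4, Hspa4l and Hsph1 exchange the nucleotide on Hsp70 and help it to dissolve aggregates. Hsph1 on its brightest probe set read 1934, 1826 and 1281 on knockout and 1479.9, 1640.4 and 1647 on heterozygous arrays, where Ko1 was the lowest and the others the highest of all arrays (0.06 ± 0.19, adjusted p = 0.893). Its other probe set changed by -0.38 ± 0.19. Hspa4 showed the opposite division on 1416146_at, with 92.9, 68.5 and 358 on knockout and 241, 258 and 328 on heterozygous arrays (-0.94 ± 0.49, adjusted p = 0.314). There knockout 67 and 68 were far below and Ko1 above every heterozygous array. On the brightest Hspa4 probe set, 1435194_at, the change was 0.28 ± 0.27, with overlapping groups. The 5 probe sets of Hspa4l changed by -0.47 to 0.82, with -0.10 ± 0.24 on the brightest, and none passed. Hspa14, an Hsp70 bound to ribosomes, changed by -0.14 ± 0.24 on its brightest probe set.

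None of the 5 tested Hsp90 probe sets passed (limma; 1 was higher and 1 lower at an unadjusted p under 0.05). Hsp90aa1 encodes the inducible cytosolic Hsp90. Its probe set 1438902_a_at read 5039.6, 5423 and 4283 on the knockout arrays and 3384, 3617 and 2771 on the heterozygous arrays, all knockout values being higher. The change was 0.59 ± 0.17 (adjusted p = 0.0999) and was 0.12 with quantile normalization. The other tested Hsp90aa1 probe sets changed by 0.15 ± 0.17 and 0.02 ± 0.20, with overlapping groups.

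Small heat shock proteins differed from each other. Of 9 tested probe sets 0 passed (limma; 1 was higher and 1 lower at an unadjusted p under 0.05), and the median change was 0.08. This median is the value of Hspb11, which was counted in the class by its symbol alone. Hspb1, called Hsp25 in mouse, caps actin filaments and holds unfolding proteins. Its probe set 1422943_a_at read 88.2, 150.3 and 111 in knockouts 67, 68 and Ko1, against 230.0, 250.5 and 268 in heterozygotes 75, 76 and 81. Every knockout array was well below every heterozygous array, and the heterozygous values lay close together. Group means were 116 ± 31.5 in knockout and 249 ± 18.8 in heterozygous brains (SD, n = 3 each). The change of -1.03 ± 0.22 just missed the threshold (adjusted p = 0.0571). With arrays centred on their medians it passed (-1.43, adjusted p = 0.0396), as it did among the brightest 25% of probe sets (adjusted p = 0.04997). A second Hspb1 probe set read 44.7, 90.6 and 22.4 on knockout and 94.6, 84.9 and 91.5 on heterozygous arrays, with knockout 68 inside the heterozygous range (-0.76 ± 0.35, adjusted p = 0.263).

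Cryab encodes alpha-B-crystallin, the small heat shock protein of lens and of oligodendrocytes. Its brightest probe set, 1434369_a_at, read 1745, 2218 and 1153 on knockout and 1047, 1081 and 943 on heterozygous arrays (0.68 ± 0.24, adjusted p = 0.157). All knockout values were higher, and the order 68, 67, Ko1 put Ko1 nearest to the heterozygous arrays. A second probe set overlapped between the groups, with 1083, 1982 and 636 on knockout and 1044, 837 and 831 on heterozygous arrays (0.30 ± 0.36). Oligodendrocyte genes were also highest on knockout 67 and 68, as the sums above show. In the fit, 8 of 20 tested probe sets of the 7 oligodendrocyte genes rose, against 1.24% of all probe sets tested, and 0 fell (limma; 0 were lower at an unadjusted p under 0.05). Their median change was 0.99, but 0.26 with quantile normalization, where 5 of the 20 changes were below 0. Their part in these values was not tested. Without knockout 67 and 68 the brightest probe set changed by 0.17. Hspb6, which lies within 1 Mb of Tyrobp on chromosome 7 by RefSeq, read 65, 106 and 59.8 on knockout and 77, 46.1 and 46.1 on heterozygous arrays (0.35 ± 0.28, adjusted p = 0.508). Hspb8, a partner of Bag3 in selective autophagy, changed by -0.09 ± 0.27 on its brightest probe set. Hspb3 was too dim to be tested, with 18.8, 28.1 and 20.7 on knockout and 16.4, 8.63 and 10.5 on heterozygous arrays.

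Hspd1 and 1 of the 2 Hspe1 probe sets of the mitochondrial chaperonin had their lowest signals on 2 of the 3 knockout arrays, and 0 of 3 passed the test (limma; 2 were lower at an unadjusted p under 0.05). Hspd1 encodes Hsp60, which forms the barrel, and Hspe1 encodes Hsp10, its lid. Their genes stand head to head on chromosome 1, and RefSeq gives Hspd1 a pair of start sites. The promoter window of 1 of them shares 285 of 300 bases with that of Hspe1, read from the opposite strand. The window of the other, chr1:55088194-55088493, shares 4 bases with it, has 0 of the elements described here and is not printed. The overlapping windows are shown because both genes had low signals on the same arrays. Capitals mark matches to a heat shock element, the blocks GAA, TTC and GAA with 2 bases of any kind between neighbours, searched on both strands, and in each printed window a pair of matches overlaps. They are chr1:55087883-55088182 (minus strand) for Hspd1 and chr1:55087898-55088197 (plus strand) for Hspe1, from RefSeq, GRCm38.p6.
Hspd1: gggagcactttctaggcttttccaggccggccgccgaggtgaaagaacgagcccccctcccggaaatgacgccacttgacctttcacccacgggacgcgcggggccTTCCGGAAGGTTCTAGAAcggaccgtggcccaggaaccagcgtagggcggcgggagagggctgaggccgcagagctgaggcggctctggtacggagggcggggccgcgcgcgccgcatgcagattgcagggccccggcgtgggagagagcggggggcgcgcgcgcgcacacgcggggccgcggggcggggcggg
Hspe1: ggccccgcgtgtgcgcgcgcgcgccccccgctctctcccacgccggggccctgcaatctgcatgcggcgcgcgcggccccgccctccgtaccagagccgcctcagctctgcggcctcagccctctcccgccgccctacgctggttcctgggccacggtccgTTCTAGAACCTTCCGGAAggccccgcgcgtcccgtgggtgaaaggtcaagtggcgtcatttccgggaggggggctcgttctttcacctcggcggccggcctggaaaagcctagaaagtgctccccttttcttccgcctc

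The element was found in the windows of 4 of the 58 member genes with a RefSeq window (6.9%), namely Hspd1, Hspe1, Hsph1 and Dnajb6, and in 0.662% of the 27025 genes with a window. The matches of Hspd1 and Hspe1 are the same bases read from opposite strands, so they are not separate finds. The windows of Hspa1a and Hspa1b had no match to this exact pattern. That does not show that they lack such elements, since altered blocks and bases outside the window were not searched. A match describes letters only and is not shown to be a binding site. Hspd1 had signals of 569, 651 and 1142 in knockouts 67, 68 and Ko1 and of 1490.5, 1359 and 1274 in heterozygotes 75, 76 and 81. Knockout 67 and 68 were the lowest, and Ko1 was just under the heterozygous range. The change was -0.85 ± 0.26 (adjusted p = 0.116). Hspe1 on 1450668_s_at read 186, 383 and 1228 on the knockout arrays and 1187, 1158 and 1084 on the heterozygous arrays. Ko1 was here the highest array of all, while knockout 67 and 68 were far below the rest (-1.32 ± 0.54, adjusted p = 0.215). The differences of knockout 67, 68 and Ko1 from the heterozygous mean were -1.25, -1.06 and -0.26 for Hspd1 and -2.52, -1.54 and 0.10 for Hspe1. Without Ko1 the changes passed, at -1.15 (adjusted p = 0.00153) for Hspd1 and -2.03 (adjusted p = 0.00211) for Hspe1, in a fit that called 23.2% of all probe sets. A second Hspe1 probe set, 1422579_at, did not show this division, with 344, 406 and 459 on knockout and 348, 372 and 289 on heterozygous arrays (0.25 ± 0.20, adjusted p = 0.503). Both knockout 67 and 68 below all 4 other arrays was found for 29 of 129 members tested, against 19.3% of all probe sets tested, and both above them for 36 of 129, against 22.3%. This division is thus common on these arrays.

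**Figure D3:**
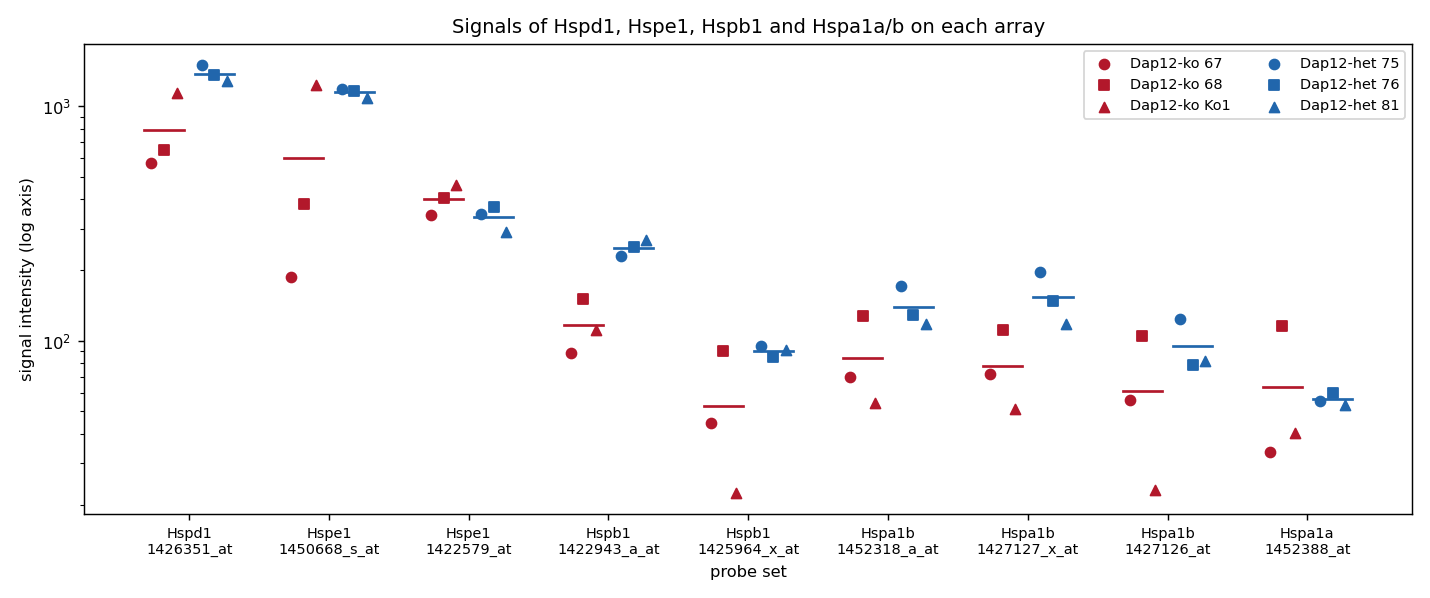
Signal intensity on a log axis of the tested probe sets of Hspd1, Hspe1, Hspb1, Hspa1b and Hspa1a, knockout arrays in red and heterozygous arrays in blue, with group means as lines (n = 3 each). Hspd1 and the first Hspe1 probe set are lowest on knockout 67 and 68. On Ko1 the first Hspe1 probe set is at 1228, above the heterozygous arrays, while Hspd1 and the first Hspb1 probe set are below them on all 3 knockout arrays.

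Other mitochondrial members did not share the pattern throughout. Dnaja3, the J protein of the matrix known as Tid1, read 198, 177 and 289 on knockout and 351, 309.9 and 293 on heterozygous arrays on its brightest probe set (-0.52 ± 0.22, adjusted p = 0.232), and a second one changed by 0.79 ± 0.37. Dnajc15, a J protein of the import motor, read 387, 412 and 436 on knockout and 459.9, 452 and 378 on heterozygous arrays, with overlap (-0.06 ± 0.18). Dnajc30 changed by -0.15 ± 0.22 and Dnajc11, which is bound to the inner membrane's organising complex, by -0.0027 ± 0.22 and 0.21 ± 0.24 on its tested probe sets. Over 13 tested mitochondrial probe sets of 7 genes, 1 rose (1431274_a_at of Hspa9), 0 fell (limma; 3 were lower at an unadjusted p under 0.05) and the median was -0.0027. The 1 that rose is 7.69% of them, against 1.24% of all tested, and it passed the filter on level through the knockout arrays alone.

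Chaperones of the endoplasmic reticulum (ER), where secreted and membrane proteins fold, gave 23 tested probe sets of 10 genes. None passed (limma; 0 were higher and 4 lower at an unadjusted p under 0.05, against 11.7% and 9.22% of all tested). The median change was -0.05, and 15 changes were below 0. On the brightest probe set of each gene 8 of 10 changes were below 0 (median -0.28), against 6720 of 11467 over all genes tested (median -0.09). This count depends on which genes were assigned to the ER. Genes without an assigned place in the cell, Dnajc14, Dnajc16, Dnajc18 and Dnajc25 among them, were not counted here. On the brightest probe sets of the 12 tested genes without a place, 3 changes were below and 9 above 0 (median 0.26). Hspa5 encodes BiP, the Hsp70 of the ER lumen, and Hsp90b1 encodes Grp94, its Hsp90. The promoters of both are known targets of the unfolded protein response, and their windows are shown with matches to the ER stress response element in capitals, that is CCAAT and CCACG with 9 bases of any kind between them, searched on both strands. They lie at chr2:34771840-34772139 (plus strand) for Hspa5 and chr10:86705395-86705694 (minus strand) for Hsp90b1, from RefSeq, GRCm38.p6.
Hspa5: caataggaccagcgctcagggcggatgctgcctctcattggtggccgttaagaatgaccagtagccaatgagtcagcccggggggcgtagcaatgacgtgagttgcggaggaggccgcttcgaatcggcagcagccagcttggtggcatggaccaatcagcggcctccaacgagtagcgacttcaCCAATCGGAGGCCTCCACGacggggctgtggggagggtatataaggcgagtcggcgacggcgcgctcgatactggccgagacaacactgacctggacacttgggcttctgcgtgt
Hsp90b1: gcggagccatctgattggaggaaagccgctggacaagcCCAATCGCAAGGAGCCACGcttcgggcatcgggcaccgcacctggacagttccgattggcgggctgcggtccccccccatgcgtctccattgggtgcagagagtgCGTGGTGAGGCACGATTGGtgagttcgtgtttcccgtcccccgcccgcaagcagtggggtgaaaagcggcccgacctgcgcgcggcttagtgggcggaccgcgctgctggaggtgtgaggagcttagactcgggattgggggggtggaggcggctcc

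This element was found for 3 of the 58 member genes (5.17%), the third being Dnajc3, and for 0.137% of all genes with a window. None of the 3 genes had a probe set that passed. Hspa5 on its brightest probe set read 1897, 2702 and 1708 on the knockout arrays and 1829, 1624 and 1797 on the heterozygous arrays, with knockout 68 the highest and Ko1 within the heterozygous range (0.24 ± 0.20, adjusted p = 0.533). Its other probe sets changed by -0.54 ± 0.36 and 0.27 ± 0.34. Hsp90b1 read 637, 675 and 966 on knockout and 1143, 1310.2 and 942 on heterozygous arrays on 1415889_a_at, where knockout 67 and 68 were lowest (-0.58 ± 0.22, adjusted p = 0.179), and changed by 0.36 ± 0.28 on its second probe set. Dnajc3, the ER co-chaperone p58IPK, changed by -0.05 ± 0.24 on the brightest of 4 tested probe sets.

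Hspa13, a microsomal Hsp70 relative also named Stch, read 195, 214 and 341 in knockouts 67, 68 and Ko1 and 426, 400.0 and 438 in heterozygotes 75, 76 and 81. All knockout arrays were lower, 67 and 68 the most (-0.76 ± 0.23, adjusted p = 0.12), while changes of -0.01 ± 0.26 and 0.25 ± 0.27 were found on 2 other probe sets. Dnajb9, an ER J protein that recruits BiP, had 438, 588 and 955 on knockout and 941, 895 and 839.9 on heterozygous arrays, with Ko1 just above the heterozygous range and the others below it (-0.50 ± 0.27, adjusted p = 0.331). Dnajb11 was a little lower on every knockout array, with 169, 159 and 129.7 against 222, 187 and 197 on the heterozygous arrays (-0.37 ± 0.20, adjusted p = 0.312). Dnajb14, a J protein of the ER membrane, gave 104, 103 and 155 on knockout and 213, 183 and 221 on heterozygous arrays on 1429468_at (-0.72 ± 0.22, adjusted p = 0.119), but its brighter probe set changed by 0.30 ± 0.41. Dnajc10, a J protein that reduces disulfide bonds, read 57.5, 66.6 and 103 on knockout and 132, 148 and 171 on heterozygous arrays on its dimmest probe set (-0.88 ± 0.24, adjusted p = 0.0935). Its other probe sets changed by -0.04 ± 0.19 and -0.03 ± 0.18, so that the difference was seen on 1 probe set of 3.

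**Figure D4:**
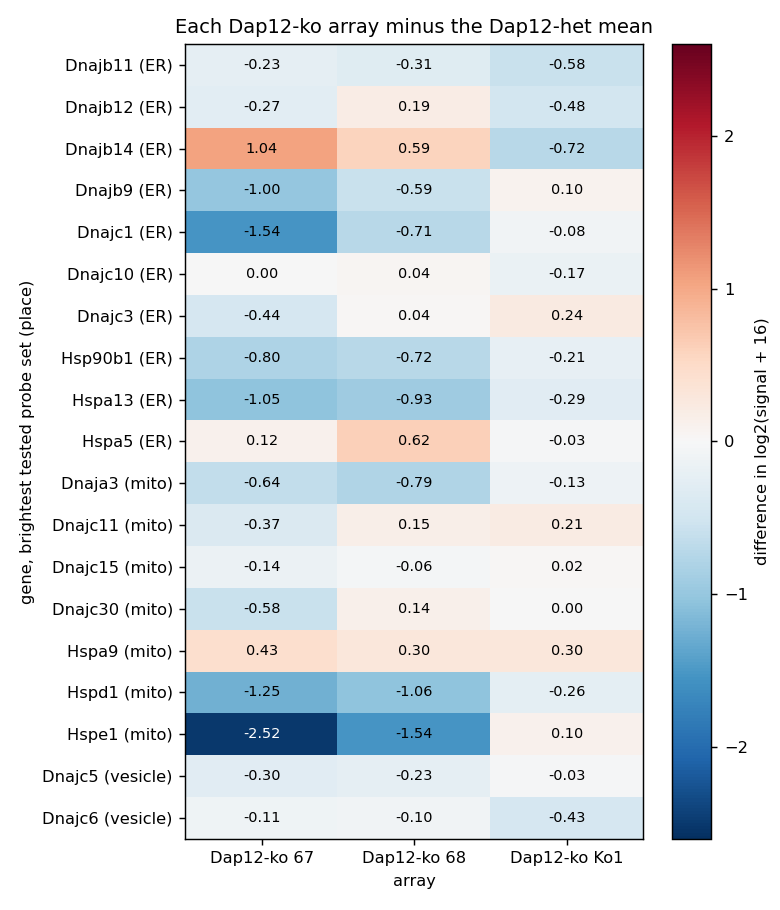
Difference of each knockout array from the mean of the 3 heterozygous arrays, in log2(signal + 16), for the brightest tested probe set of each ER, mitochondrial (mito) and synaptic vesicle member. Blue is lower and red is higher on the knockout array. Hspd1, Hspe1, Hspa13, Hsp90b1, Dnaja3, Dnajb9 and Dnajc1 are among the genes that are lowest on knockout 67 and 68. On Ko1 their values are near 0 or closer to it. Other genes differ. Dnajb14 is at 1.04, 0.59 and -0.72 on knockout 67, 68 and Ko1, Dnajb11 at -0.23, -0.31 and -0.58, and Hspa9 at 0.43, 0.30 and 0.30.

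No probe set of a DnaJ gene passed. Of 77 tested for 37 genes, 34 changes were above and 43 below 0, with a median of -0.04. At an unadjusted p under 0.05, limma gave 7 higher and 8 lower, against 11.7% and 9.22% of all tested. Classes A, B and C differ in which further domains accompany the J domain, and their medians were -0.15 over 12 probe sets, -0.03 over 18 and -0.03 over 47. Dnajb1 encodes Hsp40, the inducible partner of Hspa1a. It read 656, 756 and 574 on knockout and 653, 557 and 614 on heterozygous arrays on its brightest probe set, with overlap (0.11 ± 0.18), and 313, 424 and 288 on knockout and 235, 224 and 149 on heterozygous arrays on the other, where all knockout values were higher (0.71 ± 0.24, adjusted p = 0.144). Dnaja1 changed by -0.12 ± 0.16 and Dnaja2 by -0.23 ± 0.20 on their brightest probe sets. Both are general partners of Hspa8. Dnaja4 on 1418592_at had 151, 142 and 102 on knockout and 74.6, 62.1 and 59.5 on heterozygous arrays, every knockout value being higher (0.85 ± 0.22, adjusted p = 0.0839), while its brightest probe set changed by 0.37 ± 0.21 and another by -0.41 ± 0.24.

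Several class B members are known for suppressing aggregates of polyglutamine proteins or for function in neurons. Dnajb2, enriched in neurons, had 635, 603 and 217 on knockout and 454, 460.4 and 379 on heterozygous arrays, with Ko1 the lowest and the others the highest (0.03 ± 0.37). Dnajb6 had 266, 352 and 158 on knockout and 122, 127 and 61.6 on heterozygous arrays on 1429776_a_at, all knockout values being higher (1.18 ± 0.34, adjusted p = 0.104). Its brightest probe set, 1448234_at, changed by -0.20 ± 0.18. Dnajb5 changed by -0.22 ± 0.20 on its brightest probe set.

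The remaining class C members include partners of ribosomes, splicing and histones. Those with an unadjusted p under 0.05 are given here, a choice made after their values were seen. Dnajc2, a J protein bound to ribosomes, read 57.1, 69.8 and 244 in knockouts 67, 68 and Ko1 and 227, 177 and 283 in heterozygotes 75, 76 and 81, with knockout 67 and 68 below the rest (-1.04 ± 0.45, adjusted p = 0.233), and changed by -0.16 ± 0.22 on its other tested probe set. Dnajc16 on its dimmer probe set had the same division, with 12.7, 17.9 and 72.9 on knockout and 77.7, 89.2 and 66.6 on heterozygous arrays (-1.08 ± 0.41, adjusted p = 0.186), and its brighter one changed by 0.21 ± 0.24. Dnajc21, a factor in the making of ribosomes, was lower on every knockout array, with 173, 132 and 135 against 271, 215 and 178 on the heterozygous arrays (-0.54 ± 0.22, adjusted p = 0.215), and changed by -0.65 ± 0.37 on its second tested probe set. Dnajc27, a small GTPase with a J domain, was likewise lower, with 689, 653 and 564 on knockout and 937, 796 and 786 on heterozygous arrays (-0.39 ± 0.17, adjusted p = 0.239), but its other probe set changed by 0.07 ± 0.28 with overlapping groups.

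Dnajc18 gave both signs, -0.56 ± 0.19 on its brightest probe set and 0.70 ± 0.28 on another. The brightest read 299, 294 and 223 on knockout and 427, 423 and 365 on heterozygous arrays (adjusted p = 0.154). Dnajc14 read 249, 231 and 249 on knockout and 144, 194 and 147 on heterozygous arrays, higher on each knockout array (0.56 ± 0.20, adjusted p = 0.157), and was 0.15 with centred arrays. Its other probe sets changed by 0.44 ± 0.26 and 0.16 ± 0.27. Dnajc12, a partner of the hydroxylases that make dopamine and serotonin precursors, changed by 0.33 ± 0.25, with 277, 422 and 248 on knockout and 288, 239 and 202 on heterozygous arrays. Dnajc8, a splicing J protein, read 719, 836 and 1287 on knockout and 1024, 951 and 1385 on heterozygous arrays, with knockout 67 and 68 the lowest (-0.26 ± 0.25). Dnajc9, a histone chaperone, read 107, 172 and 235 on knockout and 229.8, 194 and 203 on heterozygous arrays, again with knockout 67 and 68 lowest (-0.32 ± 0.27). The brightest probe sets of Dnajb4, Dnajb12 and Dnajc1 changed by -0.16 ± 0.24, -0.19 ± 0.24 and -0.78 ± 0.36.

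The J proteins of the synapse were also divided by probe set. Dnajc5 encodes cysteine string protein, the J protein of synaptic vesicles that keeps Snap25 folded. On its brightest probe set, 1436180_at, it read 711, 745 and 859 on the knockout arrays and 815, 939 and 886 on the heterozygous arrays (-0.19 ± 0.17, adjusted p = 0.557). A dimmer one, 1460498_a_at, had 94.1, 246 and 107 on knockout and 30.8, 60.1 and 38.4 on heterozygous arrays (1.40 ± 0.36, adjusted p = 0.0819) and gave the highest change of the 5 tested. The other 3 changed by -0.33 ± 0.19, -0.00075 ± 0.16 and 0.21 ± 0.22. Dnajc6 encodes auxilin, which brings Hspa8 to clathrin coats. Its bright probe set had 1413, 1430.3 and 1131 on knockout and 1652, 1925 and 1124 on heterozygous arrays, fully overlapping (-0.21 ± 0.22, adjusted p = 0.627). Its dimmer one, 1431216_s_at, had 391, 479 and 158 on knockout and 114, 153 and 68.3 on heterozygous arrays (1.42 ± 0.41, adjusted p = 0.106), with Ko1 close to the highest heterozygous value. Dnajc13, an endosomal J protein, changed by -0.10 ± 0.18 and Dnajc7, which binds both Hsp70 and Hsp90, by 0.33 ± 0.16. The sign of Dnajc7 turned to -0.07 with centred arrays.

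Probe sets of 1 gene often disagreed. Of the 42 member genes with 2 or more tested probe sets, 27 (64.3%) had changes of both signs, and the median gap between the lowest and the highest change was 0.81. Over all 5190 genes with 2 or more tested probe sets, 61.5% had both signs and the median gap was 0.67, so members resemble other genes here. The widest gaps were in Hspa9, Dnajc5 and Dnajc6, at 2.75, 1.73 and 1.63, and in each of them the highest change was on a dimmer probe set than the brightest. On the brightest probe set of each gene, 24 changes were above and 35 below 0, with a median of -0.09 against -0.09 over all 11467 genes. Fitted on these probe sets alone, 0 of 59 member genes passed, against 1.01% of all genes. At an unadjusted p under 0.05, limma gave 17 of the 59, against 2180 of all 11467.

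**Figure D5:**
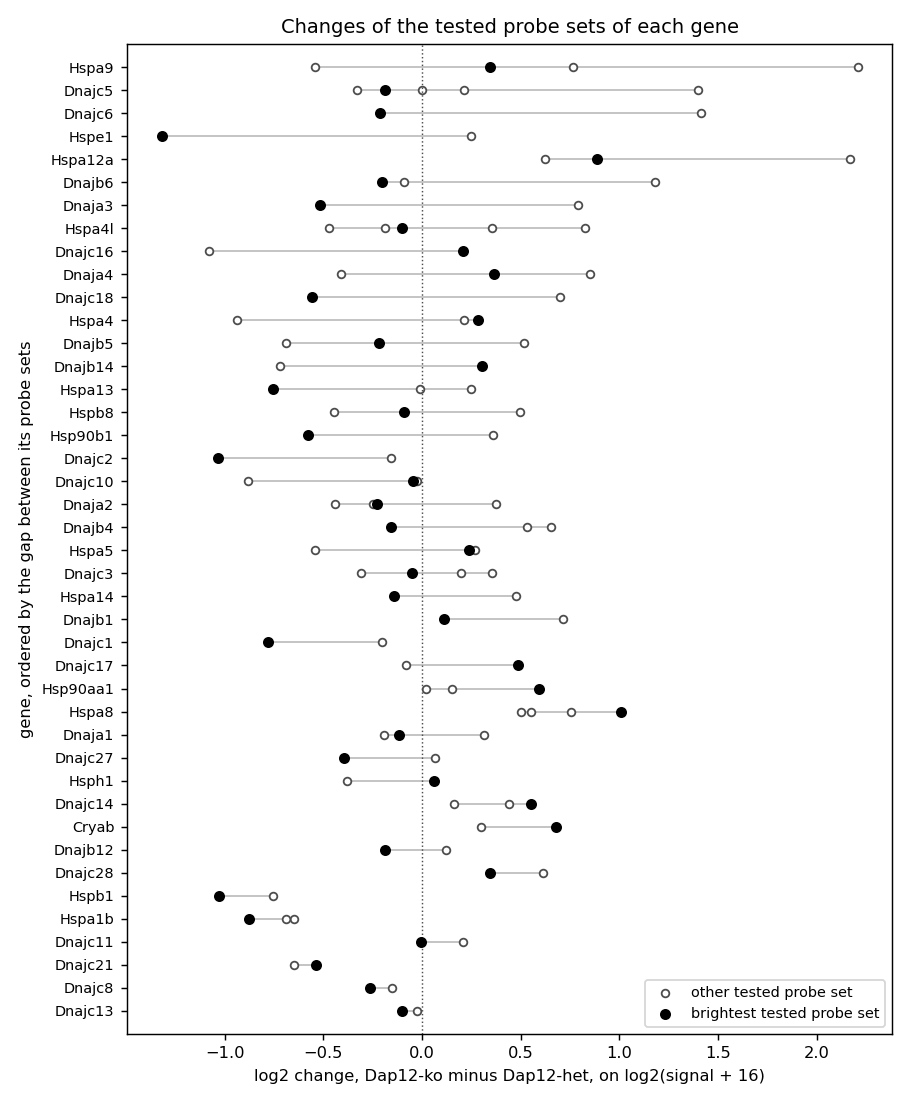
Log2 change (knockout minus heterozygous, n = 3 arrays each) of every tested probe set of the 42 member genes that have more than 1, ordered by the gap between them. Filled points mark the brightest probe set of the gene. In 27 genes the points lie on both sides of 0, and the gap is widest in Hspa9 (2.75).

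Of the transcription factors, Hsf2, a heat shock factor active in development, read 58.5, 36 and 18.3 on knockout and 12.8, 18.2 and 16.9 on heterozygous arrays (0.68 ± 0.34, adjusted p = 0.301). Ko1 was barely above the highest heterozygous array. This probe set, too, was bright enough to be tested through the knockout arrays alone. A second Hsf2 probe set was below the filter.

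Genes that work with these chaperones were listed separately. Of 61 tested probe sets of 36 cofactor genes, such as Stip1, Stub1 and the Bag proteins, 0 passed (limma; 4 were higher and 7 lower at an unadjusted p under 0.05), and the median change was -0.10. The smallest p values were those of Fkbp5, a glucocorticoid-induced cochaperone of Hsp90, at 131, 112 and 127 on knockout and 56.6, 55.6 and 26.9 on heterozygous arrays (1.20 ± 0.26, adjusted p = 0.057), and of Bag6, a guide of proteins to the proteasome, at 228, 144 and 199.8 on knockout and 333, 354 and 367 on heterozygous arrays (-0.85 ± 0.21, adjusted p = 0.0767). In both the groups did not overlap, while a second tested Fkbp5 probe set changed by -0.23 ± 0.32. Of 28 tested probe sets of the cytosolic chaperonin TRiC and of prefoldin, 1 fell and 0 rose (limma; 1 was higher at an unadjusted p under 0.05), with a median of -0.09. The 1 that fell is 3.57% of them, against 0.733% of all tested. It belongs to the subunit Cct7, which read 474, 513 and 540.4 on knockout and 1107, 1082 and 958 on heterozygous arrays and fell by 1.02 ± 0.16 in log2 units (adjusted p = 0.0299). All knockout arrays, Ko1 included, were below all heterozygous arrays. The other Cct7 probe set changed by 0.16 ± 0.19.

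Of 54 tested probe sets of ER folding enzymes and of the unfolded protein response, 2 rose and 1 fell, with a median of -0.08. Those called are 5.56% of the list, against 1.98% of all tested. The list was chosen with earlier results of these data known, so this share is no result about it. At an unadjusted p under 0.05, limma gave 10 higher (against 11.7% of all tested) and 9 lower (against 9.22%). Calr, the lectin chaperone calreticulin, read 688, 654 and 922 on knockout and 1919, 1810.0 and 2071 on heterozygous arrays and fell by 1.35 ± 0.18 in log2 units (adjusted p = 0.0205). The remaining Calr probe sets changed by -1.33 ± 0.30 and -0.78 ± 0.17 and were also lower on all knockout arrays. Both that rose are of Sel1l, an adaptor of ER-associated degradation, at 167, 283 and 136 on knockout and 56.8, 69.7 and 30.2 on heterozygous arrays (1.62 ± 0.33, adjusted p = 0.0479) and at 55.7, 92.6 and 64.5 on knockout and 14.8, 7.43 and 16.2 on heterozygous arrays (1.58 ± 0.28, adjusted p = 0.0386). The second of these passed the filter on level through the knockout arrays alone. The remaining Sel1l probe sets changed by 1.08 ± 0.27, -0.06 ± 0.21 and -0.44 ± 0.20. Genes that respond to handling and temperature were not called in any of 10 probe sets (limma; 2 were higher at an unadjusted p under 0.05, against 11.7% of all tested). Changes in this list ran from -0.55 to 1.49, with a median of -0.06. The probe sets of Fos and Cirbp given here as examples are not among the 2 that were higher. Fos read 404, 511 and 176 on knockout and 432, 521 and 538 on heterozygous arrays (-0.55 ± 0.35), and the cold-inducible Cirbp 242, 210.4 and 188 on knockout and 203, 187 and 133 on heterozygous arrays (0.28 ± 0.22).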

How the data were processed

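Gene expression was measured in 6 brain samples, 3 Dap12-ko and 3 Dap12-het, on 1 one-colour array each. The deposited values are linear signal intensities for 45101 probe sets, produced with GCOS per the submitters' processing notes, which give no version or summary settings. The values have a trimmed mean of 100 on every array, and raw probe intensities were not used here. Every value column was matched to a sample by its accession in the header, and 0 columns had no sample. The number of arrays limits the precision.

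Symbols came from the platform annotation, where 34945 probe sets have 1 gene, 932 several and 9160 none listed. Probe sets with several symbols, those of Dnajc19 among them, were not members. Promoter windows are RefSeq's (GRCm38.p6). For the test, log2(signal + 16) was fitted with limma 3.58.1 (R 4.3.3) with a mean trend in the variance, over the 22518 probe sets whose mean exceeded the median of all but the 64 controls, with Benjamini-Hochberg adjustment. The procedure was tested on simulated data. Named genes are those past the threshold, a fixed set of well-known members and the smallest p in each class or place. The genes with the widest gaps between probe sets were also named. In the lists of cofactors, of TRiC and prefoldin and of ER folding, the called or the 2 smallest p are given. The members and lists were chosen with earlier results of these data known. Alternatives were the normalization, the added constant, a floor, the filter, the trend, array weights, 1 probe set per gene and leaving out arrays. Python 3.11.15 with pandas 2.3.3 and matplotlib 3.10.9 was used for counts and figures.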

Additional observations from a re-analysis of the deposited data

Results flagged for a closer look

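The 18 probe sets of hybridization spikes, which lie outside the mouse genes compared, had all 3 knockout arrays above all 3 heterozygous arrays in signal. In 1 member below the filter on level, Dnaja3 1432066_at, the lowest knockout signal was 2.21 times the highest heterozygous signal, with 9.02, 16.3 and 16.1 on the knockout arrays and 0.631, 4.09 and 0.408 on the heterozygous arrays. All 6 signals are at the bottom of the scale, so this ratio describes the deposited signals and is no measured fold of expression.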

How the results depend on the processing

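The number of member probe sets that rose, 3 in the report, was 1 with quantile normalization, 1 with signals floored at 1 and nothing added, 1 among the brightest 25% of probe sets, 17 with array weights, and 0 with no filter, with 1 probe set per gene, without knockout 67 and 68, or with a filter on the heterozygous arrays alone (chosen after seeing the data). Where it was 0, limma gave 38, 17, 28 and 29 members at an unadjusted p under 0.05 in either direction. Leaving out 1 array gave 0 to 21 that rose, 21 without Ko1 and 0 without any other array, where 18 to 23 members had an unadjusted p under 0.05. The number that fell, 0 in the report, was 1 with arrays centred on their medians, 1 among the brightest 25%, 17 with array weights, 1 without knockout 67 and 68, and 0 to 16 leaving out 1 array, 16 without Ko1. In the fits with many calls, members were called about as often as all probe sets, 26.4% against 21.3% with array weights and 28.9% against 23.2% without Ko1. The change of Hspa8 1455789_x_at was -0.24 with quantile normalization (adjusted p = 0.427), and the cause was not tested. Its call was also lost with a floor of 1, no filter, no trend and the filter on the heterozygous arrays.

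Over all probe sets, those that rose, 280 in the report, numbered 74 with quantile normalization, 100 with centred arrays, 63 with no filter, 168 among the brightest 25%, 123 with no trend, 2468 with array weights, 28 with 1 probe set per gene and 150 with the filter on the heterozygous arrays. Those that fell, 165 in the report, numbered 53 with quantile normalization, 481 with centred arrays, 61 with no filter, 57 with no trend, 2318 with array weights, 88 with 1 probe set per gene and 382 without knockout 67 and 68. Leaving out 1 array gave 0 to 2688 that rose and 0 to 2538 that fell. Cofactor probe sets called, 0 in the report, were 1 with centred arrays, 10 with array weights, 1 without knockout 67 and 68, and 0 to 14 leaving out 1 array. Those of TRiC and prefoldin, 1 in the report, were 0 with no trend and with 1 probe set per gene, 8 with array weights, 2 without knockout 67 and 68, and 0 to 9 leaving out 1 array. Those of the ER list, 3 in the report, were 1 with quantile normalization, no filter or the filter on the heterozygous arrays, 21 with array weights, 0 with 1 probe set per gene, and 0 to 23 leaving out 1 array. At an unadjusted p under 0.05, limma gave 2 TRiC and prefoldin probe sets both with no trend and with 1 probe set per gene, and 9 ER probe sets with 1 per gene. Values for the 49 named probe sets kept direction and side of the threshold in 683 of the alternative fits, changed sign without being called in 49, lost a call in 24, gained 1 in 41 and reversed in 1. No paired analysis was possible because the groups share no replicate numbers. Signals near the bottom of the scale are compressed by the added constant, which limits what dim members can show.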

Other observations

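Of the 72 heat shock and DnaJ genes, 13 had no probe set bright enough to be tested. Among them were 7 known mainly from testis, namely Hspa1l, Hspb9, Dnajb3, Dnajb8, Dnajb13, Dnajc5b and Dnajc5g, with signals of 0.497 to 40.2 on the knockout arrays (median 6.87) and of 0.311 to 18.1 on the heterozygous arrays (median 3.96). The small heat shock proteins of heart and skeletal muscle, Hspb2, Hspb3 and Hspb7, gave 1.46 to 34.2 on the knockout arrays and 0.400 to 16.4 on the heterozygous arrays over 5 probe sets. Of all 45 members below the filter, 6 had all knockout arrays above all heterozygous arrays and 1 had them below, and none was tested. Over all 22519 probe sets below the filter these shares were 18.8% and 2.32%.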
